A study of Mus musculus with 23 samples.

Results

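Glycolysis and hypoxia response genes were followed here between cells of mouse colon tumours that did or did not express a Basp1 reporter. The set comprised 33 genes chosen by symbol: 18 glycolysis members (glucose and lactate transporters, glycolytic enzymes and a regulator of the pathway) and 15 HIF members (genes of the hypoxia response). All 33 symbols were found among the 54354 gene rows of the table. Aldoa had a second row (ENSMUSG00000114515) with 0 counts in every library, which was not used. Counts of 30 members were high enough to be tested, whereas Pfkm, Ankrd37 and Pdk1 did not pass the filter on low counts and are given by their levels only.

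The tumours came from AKP-tdT organoids, cultured mouse intestinal tumour epithelium with a tdTomato label, that carried Basp1-eGFP-DTR, a reporter of Basp1 with enhanced GFP (green fluorescent protein) and the receptor for diphtheria toxin. These organoids had been injected into the colon, and the primary tumours were digested and sorted on GFP into 12 GFP-negative (GFP-N) and 11 GFP-positive (GFP-P) libraries for bulk RNA sequencing. The organoid-derived cells of both groups carry the same reporter (genotype label Basp1-GFP) and the same tumour alleles. The sort is described by GFP alone, and both groups also held fibroblast and macrophage transcripts. The labels give no treatment, time, age or diet for any library, although the series title ends in HFD, and the extraction protocol speaks of organoids where the design speaks of tumours. They do not say which libraries stem from different animals, and a p-value here reflects only how libraries vary, which may be technical variation.

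Glycolysis turns glucose into pyruvate in the cytosol, and lactate dehydrogenase and the monocarboxylate transporters then allow carbon to leave the cell as lactate. Under low oxygen the prolyl hydroxylases Egln1 and Egln3 lose activity, the transcription factor subunit Hif1a is no longer marked for degradation, and HIF raises the transcription of most glycolytic enzymes and of genes for angiogenesis, mitophagy, collagen hydroxylation and oxidative protein folding. Tumour cells often keep glycolysis high also where oxygen is present.

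HIF binds a short core, ACGTG or GCGTG, and the promoters of the set were read for these letters on both strands in the 250 bases before each transcription start (RefSeq, GRCm38.p6). A promoter was listed for 31 of the 33 members. At least 1 core was found in 26 of the 31 (83.9%), against 38.6% of all 32851 listed promoters of the same length. The members were chosen as glycolysis and HIF genes, so the higher share is not an independent result. For members the start nearest the principal GENCODE start was read, where the 38.6% covers every listed start. With the first listed start of each of 27025 genes the share was also 38.6%. The cores were present in 14 of 18 glycolysis members (77.8%) and in 12 of 13 HIF members (92.3%). Hk1, Gpi1, Tpi1, Pkm and Vegfa held none. The members' promoters were also richer in G and C, with a median of 64% against 52.4%, and the part of base composition in the motif share was not tested. Some RefSeq starts lay away from the principal start in the GENCODE annotation, by 1021 bases for Vegfa, 244 for Eno1, 234 for Higd1a and 208 for Pkm. A match of these letters is a description of the sequence and not a measured binding site. Promoters of 5 of the members that held a core are printed 5′ to 3′ on the gene's strand, in lower case, with each core or its reverse complement in capitals.
Ldha (chr7:46845554-46845803, plus strand): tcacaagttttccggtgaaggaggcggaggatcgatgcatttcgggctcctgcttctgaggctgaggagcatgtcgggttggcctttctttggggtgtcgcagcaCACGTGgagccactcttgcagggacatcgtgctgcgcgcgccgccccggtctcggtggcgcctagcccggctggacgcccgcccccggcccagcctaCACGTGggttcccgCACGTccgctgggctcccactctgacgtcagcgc
Pgk1 (chrX:106186850-106187099, plus strand): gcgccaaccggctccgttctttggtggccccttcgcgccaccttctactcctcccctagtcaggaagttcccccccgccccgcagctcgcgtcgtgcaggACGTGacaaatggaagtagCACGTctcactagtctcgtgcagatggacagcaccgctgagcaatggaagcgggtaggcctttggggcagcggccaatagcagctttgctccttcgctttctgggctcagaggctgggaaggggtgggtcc
Bnip3 (chr7:138909507-138909756, minus strand): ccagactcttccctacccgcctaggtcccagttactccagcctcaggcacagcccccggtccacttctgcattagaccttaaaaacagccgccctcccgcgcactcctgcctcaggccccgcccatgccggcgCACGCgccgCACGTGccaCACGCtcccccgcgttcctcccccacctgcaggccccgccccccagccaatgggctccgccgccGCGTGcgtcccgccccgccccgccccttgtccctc
Ero1a (chr14:45318573-45318822, minus strand): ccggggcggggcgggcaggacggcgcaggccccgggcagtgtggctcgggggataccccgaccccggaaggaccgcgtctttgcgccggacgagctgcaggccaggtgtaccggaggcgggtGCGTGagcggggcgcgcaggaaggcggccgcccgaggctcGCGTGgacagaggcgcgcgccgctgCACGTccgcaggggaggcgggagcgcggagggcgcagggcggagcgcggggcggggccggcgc
P4ha1 (chr10:59323046-59323295, plus strand): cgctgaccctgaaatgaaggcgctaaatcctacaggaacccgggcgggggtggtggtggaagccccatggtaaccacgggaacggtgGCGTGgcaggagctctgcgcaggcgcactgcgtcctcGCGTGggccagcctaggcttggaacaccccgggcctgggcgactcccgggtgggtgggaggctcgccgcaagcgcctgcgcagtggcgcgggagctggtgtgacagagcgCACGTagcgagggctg
The palindrome CACGTG holds ACGTG on both strands and was counted as 2 overlapping positions, which makes 5 positions in Ldha, 5 in Bnip3, 3 in Ero1a, 3 in P4ha1 and 2 in Pgk1. Ldha and Pgk1 held the ACGTG form alone, whereas Bnip3, Ero1a and P4ha1 held both forms.

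Depth was low and uneven: GFP-N libraries held a median of 144334 counts (25458 to 2304316) and GFP-P libraries a median of 1418140 (37125 to 4238877). Only 4 libraries, GFP-N 4, 5 and 12 and GFP-P 4, held fewer than 100000 counts. At this depth a count of 0 allows up to 118 CPM (counts scaled to a common library total) in GFP-N 5 and up to 80.8 CPM in GFP-P 4, from counting error alone and 3 counts as the upper limit. Library names carry running numbers with a break between them, which divides the study into library set 1 (6 GFP-N and 5 GFP-P) and library set 2 (6 and 6); the labels do not say what the break means. Basp1 itself had a mean of 33.4 CPM ± 27.0 (SD, n = 12) in GFP-N and 57.8 CPM ± 32.9 (SD, n = 11) in GFP-P, and the difference did not pass the test (log2 fold change 0.63, SE 0.38, edgeR adjusted p = 0.997). Fibroblast markers were lower in GFP-P in 6 of 6 tested genes, with 1 past the threshold (Fbln1, log2 fold change -3.17, edgeR adjusted p = 0.0119), and the library GFP-P 3 stood apart with 31106 summed CPM of macrophage markers. In bulk RNA, fewer cells of a type and less RNA per cell cannot be told apart.

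In the comparison of all GFP-P with all GFP-N libraries, no member passed the test, yet most lay lower in GFP-P. The edgeR quasi-likelihood test called 0 of 30 members at an adjusted p of 0.05, where 0.0151% of the 6621 genes tested were called (1 gene, Fbln1). DESeq2 also called 0 members, and called 0.362% of all genes. At an unadjusted p below 0.05, 8 of 30 members were lower in GFP-P and 0 higher, beside 2.22% and 2.73% of all genes tested. The log2 fold change (GFP-P minus GFP-N) was below 0 in 24 of 30 members, beside 41.5% of all genes. Its median was -0.32 over the 17 tested glycolysis members, of which 15 were negative, and also -0.32 over the 13 tested HIF members, of which 9 were negative, where the median of all genes was 0.07. Both medians moved with the libraries and settings used: the glycolysis median was -0.21 without GFP-N 3, and the HIF median ran from -0.51 to -0.21 with 1 identifier left out (7968 and 7907) and was -0.13 with no filter on low counts. With the identifier of the library names fitted as a block, which leaves out GFP-N 3 for want of a partner, the glycolysis median was -0.18. The range of single members was wider among HIF members, from -1.15 (Ero1a) to 0.32 (Ndrg1), than among glycolysis members, from -0.88 (Slc16a3) to 0.25 (Hk2).

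**Figure D1:**
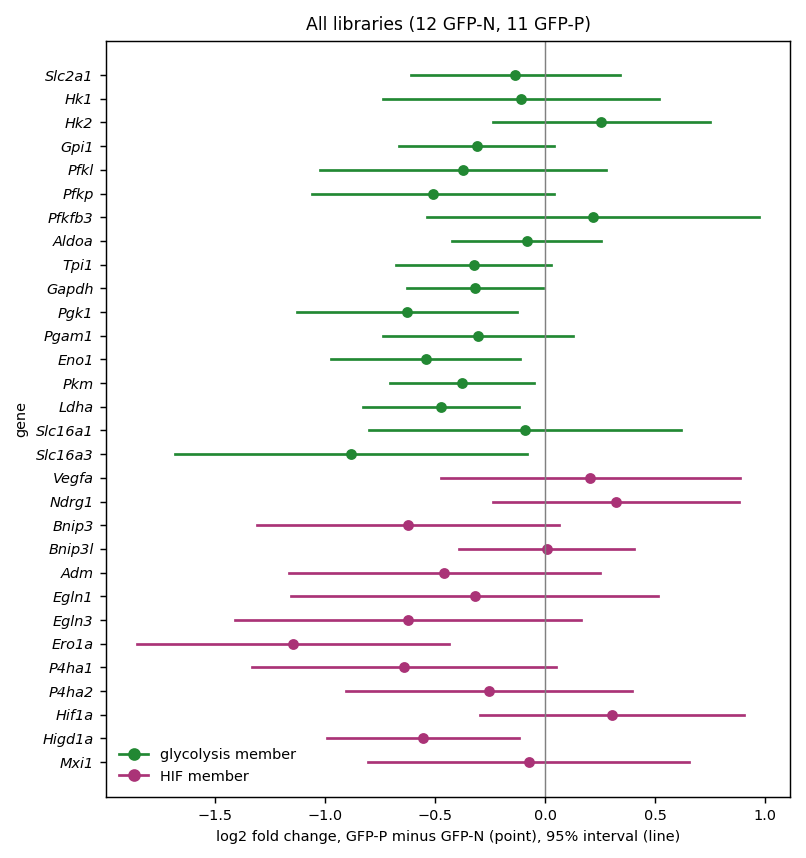
Log2 fold change of each of the 30 tested members, GFP-P minus GFP-N, over 12 GFP-N and 11 GFP-P libraries (x axis, points; lines are 95% intervals; green glycolysis members, purple HIF members). The points of 24 members lie below 0, Ero1a is farthest to the left at -1.15, and Hk2, Pfkfb3, Vegfa, Ndrg1, Hif1a and Bnip3l (0.01) lie to the right of 0 with intervals that include 0.

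Per kilobase of annotated exon, the most abundant members were enzymes of the middle and end of the pathway. Over all libraries the mean was 816 CPM per kilobase for Ldha, 614 for Aldoa, 542 for Gapdh, 525 for Pgk1, 298 for Tpi1 and 217 for Pkm. The highest HIF members on this scale were Higd1a at 156 and Bnip3 at 119 CPM per kilobase. Among isozymes of the same step, Hk2 (60.4 CPM per kilobase) lay above Hk1 (4.72), and of the phosphofructokinases Pfkl (9.78) and Pfkp (7.39) lay above the muscle form Pfkm (0.999). Exon length was taken over all annotated transcripts of a gene, so a long unused exon lowers the value. Enzymes such as Gapdh, Pgk1, Ldha and Aldoa have many near-identical processed copies in the mouse genome, among which the counting can divide reads, so their levels are estimates.

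Glucose enters through Slc2a1, the widespread glucose transporter GLUT1. Its level was 34.6, 158 and 304 CPM (lowest, median and highest of 12 libraries) in GFP-N and 80.5, 126 and 215 CPM (of 11) in GFP-P. The groups overlapped over most of their range, with a log2 fold change of -0.14 (SE 0.23) that was -0.03 without GFP-N 11, its highest library. Hexokinase then traps glucose as glucose 6-phosphate. Hk2, the hexokinase form that tumours commonly raise, was one of the 2 glycolysis members with a positive log2 fold change: 121, 276 and 708 CPM in GFP-N against 162, 418 and 541 CPM in GFP-P, log2 fold change 0.25 (SE 0.24), and 0.42 without GFP-N 1, its highest library. The lowest libraries of Hk2 were the low-depth GFP-N 4 and GFP-P 4. Hk1, the housekeeping form, ranged from 0 to 71.9 CPM in GFP-N and from 15.9 to 53.9 CPM in GFP-P, with a log2 fold change of -0.11 (SE 0.31) that lay between -0.22 and -0.03 with 1 library left out. Of the 10 identifiers in the library names that occur with both populations, Hk2 was higher in GFP-P in 7 and Hk1 in 5.

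Gpi1, which isomerises glucose 6-phosphate, had a log2 fold change of -0.31 (SE 0.17). Phosphofructokinases catalyse the committed step. Pfkp, the platelet form, had a log2 fold change of -0.51 (SE 0.27), and -0.29 without identifier 8045-8050. Its highest value, 393 CPM, was in GFP-N 5, and GFP-P libraries lay between 44.7 and 109 CPM. Pfkl, the liver form, had a log2 fold change of -0.37 (SE 0.32). It was highest in GFP-N 3 at 184 CPM and at 0 in GFP-P 4, and its log2 fold change was -0.16 without GFP-N 3. Pfkm was at 0 counts in 5 of 12 GFP-N and 5 of 11 GFP-P libraries and was not tested. Pfkfb3, which makes the activator fructose 2,6-bisphosphate, was the other glycolysis member with a positive log2 fold change, 0.22 (SE 0.37), from 0 to 146 CPM in GFP-N and from 6.15 to 108 CPM in GFP-P. With 1 library left out it lay between 0.12 (without GFP-N 7) and 0.58 (without GFP-N 10, its highest library).

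Aldoa and Tpi1 split fructose 1,6-bisphosphate and interconvert the triose phosphates that result. Aldoa was among the members with the smallest difference over all libraries: 1155, 1682 and 3508 CPM in GFP-N against 1125, 1747 and 2484 CPM in GFP-P, log2 fold change -0.09 (SE 0.17). The library sets differed in sign for Aldoa, with -0.42 (SE 0.22) in set 1 and 0.28 (SE 0.20) in set 2. Tpi1 had 485, 804 and 1722 CPM in GFP-N and 440, 698 and 1007 CPM in GFP-P, log2 fold change -0.33 (SE 0.18). Without GFP-N 3, its highest library, the log2 fold change of Tpi1 was -0.21.

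Of the 6 glycolysis members that were lower in GFP-P at an unadjusted p below 0.05, 5 belong to the steps from Gapdh to Ldha, the other being the lactate exporter Slc16a3. Gapdh, which oxidises glyceraldehyde 3-phosphate, had 1386, 2282 and 4378 CPM in GFP-N and 1443, 2008 and 2579 CPM in GFP-P. The lower ends of both groups were alike and the upper end was higher in GFP-N, and the log2 fold change was -0.32 (SE 0.15, unadjusted p = 0.0416, edgeR adjusted p = 0.992), and -0.16 when the identifier was fitted as a block. Pgk1, the first enzyme of the pathway to make ATP, had 533, 1233 and 2867 CPM in GFP-N and 517, 892 and 1470 CPM in GFP-P. Its log2 fold change was -0.63 (SE 0.24, unadjusted p = 0.0158, edgeR adjusted p = 0.949), and -0.33 when the identifier was fitted as a block. Pgam1, which moves the phosphate within phosphoglycerate, had a log2 fold change of -0.30 (SE 0.21). Fitting this block also gave -0.20 for Pgam1, -0.18 for Tpi1, -0.19 for Gpi1, -0.24 for Pfkp, -0.26 for Bnip3 and -0.27 for Higd1a.

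Eno1, the enolase that forms phosphoenolpyruvate, had 103, 209 and 471 CPM in GFP-N and 78.1, 151 and 269 CPM in GFP-P. The groups overlapped, with a log2 fold change of -0.54 (SE 0.21, unadjusted p = 0.0142, edgeR adjusted p = 0.949). Eno1 shares its sequence with the copy Eno1b, which took between 75.5% and 89.2% of the counts of both rows in every library. The division between the rows is an estimate of the counting program. With both rows summed into 1 gene, an alternative added after seeing the data, the log2 fold change was -0.50 (SE 0.18, unadjusted p = 0.00790, edgeR adjusted p = 0.940). Within the library sets the sum of Eno1 and Eno1b had log2 fold changes of -0.67 (SE 0.24) in set 1 and -0.34 (SE 0.25) in set 2.

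Pkm, the pyruvate kinase of proliferating and most adult tissues, had 517, 1158 and 2034 CPM in GFP-N and 737, 886 and 1239 CPM in GFP-P. Its log2 fold change was -0.38 (SE 0.16, unadjusted p = 0.0242, edgeR adjusted p = 0.992), and -0.18 with the identifier as a block. Ldha, which turns pyruvate into lactate, had 1378, 2832 and 6317 CPM in GFP-N and 1567, 2251 and 2973 CPM in GFP-P. For both genes the GFP-P libraries lay within the range of the GFP-N libraries, whose spread was larger. The log2 fold change of Ldha was -0.47 (SE 0.18, unadjusted p = 0.0101, edgeR adjusted p = 0.939), and -0.24 when the identifier was fitted as a block.

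Lactate leaves through proton-coupled transporters. Slc16a3 (MCT4), the HIF-responsive exporter, had the most negative log2 fold change of the glycolysis members, -0.88 (SE 0.40, unadjusted p = 0.0315, edgeR adjusted p = 0.992). Its level was 8.61, 51.4 and 129 CPM in GFP-N and 0, 22.7 and 47.2 CPM in GFP-P, where the 0 was the low-depth GFP-P 4. The highest GFP-P library thus lay below the GFP-N median. With the identifier as a block the log2 fold change was -0.41, and without the 4 libraries under 100000 counts it was -0.57. Slc16a1 (MCT1), the transporter that most cells carry, had a log2 fold change of -0.09 (SE 0.35), with medians of 29.7 CPM in GFP-N and 33.8 CPM in GFP-P.

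**Figure D2:**
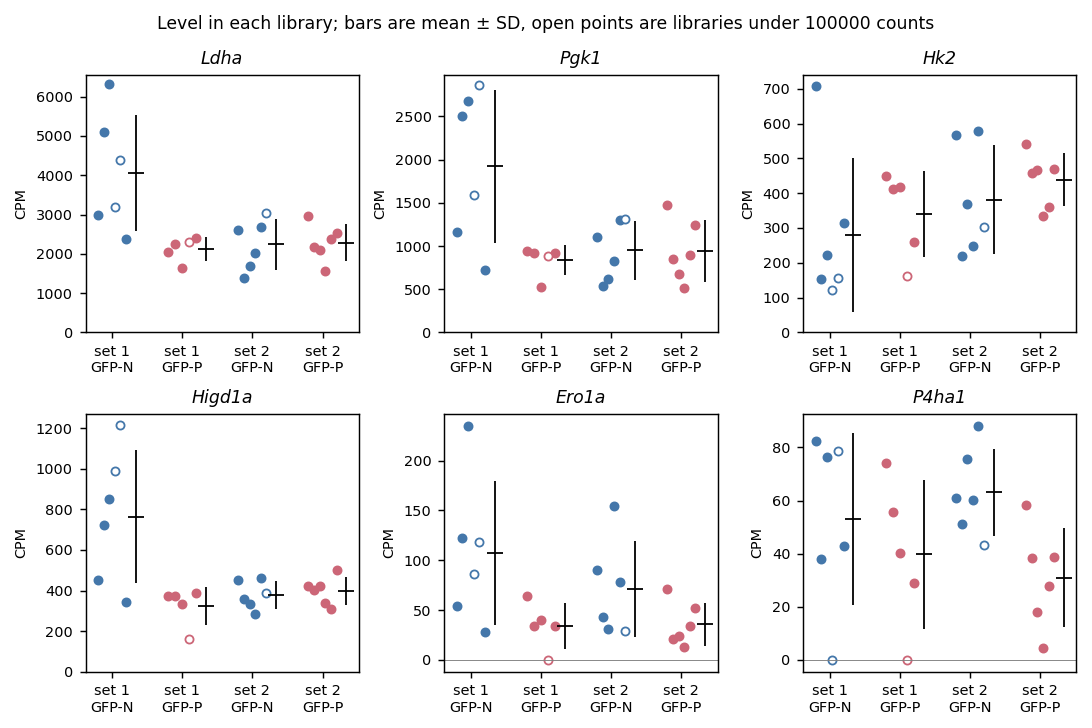
Level of 6 members in each library (y axes, CPM), by library set and group (blue GFP-N, red GFP-P; open points are libraries under 100000 counts; bars are mean ± SD). In library set 1, 5 of the 6 GFP-N libraries lie above every GFP-P library for Ldha, Pgk1 and Higd1a, and in set 2 the groups of these genes overlap over most of their range.

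The HIF members are ordered here from the sensor to the targets. Hif1a, the oxygen-regulated subunit, had a positive log2 fold change of 0.30 (SE 0.30), and 0.17 without the macrophage-rich GFP-P 3. Its transcript ranged from 0 to 112 CPM in GFP-N and from 26.9 to 110 CPM in GFP-P, and its protein was not measured. Of the prolyl hydroxylases that mark Hif1a and are themselves induced by HIF, Egln3 had a log2 fold change of -0.62 (SE 0.39), with medians of 38.7 CPM in GFP-N and 26.4 CPM in GFP-P. Egln1 had a log2 fold change of -0.32 (SE 0.41) that rested on 1 library: GFP-N 10 held 189 CPM, and without it the log2 fold change was 0.26.

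Ero1a, the oxidase that drives disulphide formation in the endoplasmic reticulum, had the smallest p-value of the set over all libraries. Its level was 28.2, 82.5 and 235 CPM in GFP-N and 0, 33.9 and 70.7 CPM in GFP-P. The highest GFP-P library lay below the GFP-N median, and the GFP-P 4 value of 0 was again a low-depth library. The log2 fold change was -1.15 (SE 0.35, unadjusted p = 0.00223), which did not pass over all genes (edgeR adjusted p = 0.730, DESeq2 adjusted p = 0.124). Without the 4 libraries under 100000 counts it was -1.13. Fits with other settings ran from -1.25 to -0.77, and fits with 1 library left out from -1.27 to -0.90.

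P4ha1 and P4ha2 are the catalytic subunits of collagen prolyl 4-hydroxylase and serve collagen made by the cell itself. P4ha1 had 0, 60.6 and 88.2 CPM in GFP-N and 0, 38.3 and 74.3 CPM in GFP-P, with the zeros in the low-depth GFP-N 4 and GFP-P 4. The log2 fold change was -0.64 (SE 0.34, edgeR adjusted p = 0.996). It was -0.22 (SE 0.48) in library set 1 and -1.06 (SE 0.46) in set 2. Within identifiers the difference of log2(CPM + 1) was negative in 10 of 10, with a mean of -1.12 ± 1.34 (SD, n = 10), and -0.89 without 8045-8050, whose GFP-P library had 0 counts. How many of all genes were negative in 10 of 10 was not counted. The size of the P4ha1 difference was uneven. The difference lay between -0.15 and -0.06 in 3034, 7789-7795, 61-1, 5780 and 7968, and was -0.39 in 7421. It lay between -3.43 and -1.64 in 7907, 8045-8050, 40-1 and 7914. Of these, 7907 had 7 counts in GFP-N 10 and 4 in GFP-P 9, and 7914 had 9 counts in GFP-N 11. Identifier 40-1 had 85 counts in GFP-N 9 and 71 in GFP-P 8. P4ha2 was lower in GFP-P in 9 of 10 identifiers, although its log2 fold change over all libraries was small at -0.26 (SE 0.32), and lay between -0.44 (without GFP-P 2) and -0.14 (without GFP-P 9) with 1 library left out. Over all libraries, collagen genes of the fibroblast list lay lower in GFP-P as well. The log2 fold change was -2.89 for Col1a1 and -2.63 for Col1a2 (edgeR adjusted p = 0.730 for both). In set 1 it was -0.68 (SE 1.34) for Col1a1 and -0.12 (SE 1.24) for Col1a2, and in set 2 -3.90 and -3.71. The part of these collagen genes in the values of P4ha1 was not tested.

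Bnip3 and Bnip3l are mitophagy receptors of the outer mitochondrial membrane. Bnip3 had 96.3, 284 and 825 CPM in GFP-N and 80.8, 210 and 424 CPM in GFP-P. Its log2 fold change of -0.62 (SE 0.33) was -0.20 without the 4 libraries under 100000 counts. Bnip3l had a log2 fold change of 0.01 (SE 0.20), with medians of 241 CPM in GFP-N and 264 CPM in GFP-P. Higd1a, a small mitochondrial inner membrane protein, had 284, 452 and 1218 CPM in GFP-N and 162, 374 and 500 CPM in GFP-P. Its 3 highest libraries, GFP-N 3, 4 and 5, were all of library set 1. The log2 fold change was -0.56 (SE 0.22, unadjusted p = 0.0135, edgeR adjusted p = 0.949), and -0.22 without the 4 libraries under 100000 counts.

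The secreted and stress-related targets did not share 1 direction. Vegfa, the angiogenic growth factor, had 22.8, 45.5 and 108 CPM in GFP-N and 0, 41.2 and 169 CPM in GFP-P. Its log2 fold change was 0.21 (SE 0.34), and -0.07 without GFP-P 1, its highest library. Ndrg1, a stress-induced gene of differentiating epithelium, had a log2 fold change of 0.32 (SE 0.28), and 0.07 without GFP-P 1, which held 482 CPM. Adm, the vasodilator peptide adrenomedullin, had a log2 fold change of -0.46 (SE 0.35), and Mxi1, an antagonist of Myc, of -0.08 (SE 0.36). Ankrd37 and Pdk1, the kinase that shuts pyruvate dehydrogenase, were not tested. Their medians were 12.1 and 13.3 CPM in GFP-N against 11.3 and 12.5 CPM in GFP-P.

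**Figure D3:**
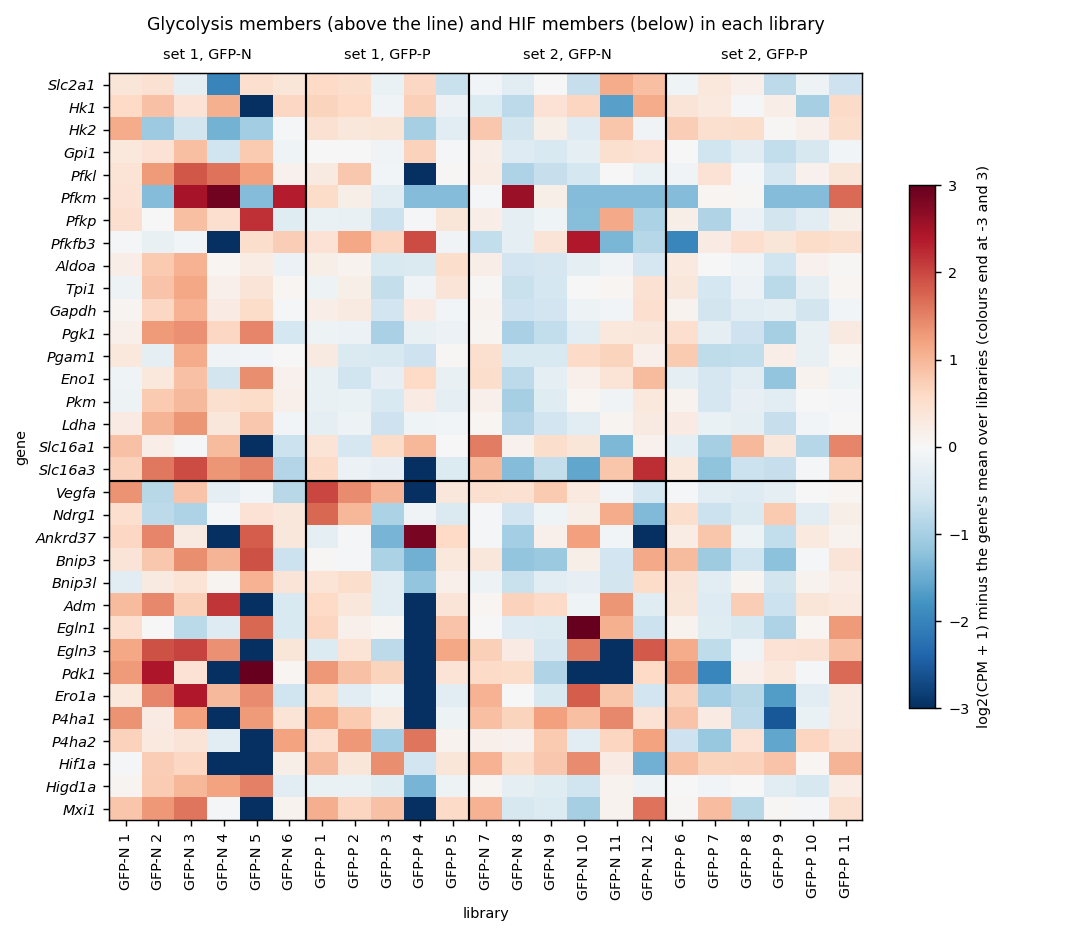
Each member (rows) in each library (columns, by library set and group): log2(CPM + 1) minus the gene's mean over the 23 libraries, red above and blue below the mean, with colours ending at -3 and 3. Pgk1, Pkm, Ldha, Slc16a3, Bnip3 and Higd1a are red in GFP-N 2, 3, 4 and 5 of set 1, and the dark blue cells of GFP-N 4, GFP-N 5 and GFP-P 4 are zeros in libraries under 100000 counts.

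The comparison was repeated within each library set. In set 1, 11 of 30 members were lower in GFP-P at an unadjusted p below 0.05 and 0 higher, beside 2.99% lower and 2.42% higher among all 5256 genes tested. In 22 of 30 members the log2 fold change was below 0, beside 45.9% of all genes. edgeR called 0% of the genes there and no member, and DESeq2 called 0.114% of the genes and no member. Ldha had a mean of 4059 CPM ± 1485 (SD, n = 6) in GFP-N and 2125 CPM ± 301 (SD, n = 5) in GFP-P, a log2 fold change of -0.97 (SE 0.20, unadjusted p = 8.11e-05, edgeR adjusted p = 0.142). Only GFP-N 6, at 2380 CPM, lay within the GFP-P range. The same library was the only one that overlapped for Pgk1 (725 CPM) and Higd1a (345 CPM).

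The largest difference of set 1 was that of Ero1a at a log2 fold change of -1.32 (SE 0.50). It was followed by Pgk1 at a log2 fold change of -1.23 (SE 0.28, edgeR adjusted p = 0.243), Bnip3 at -1.20 (SE 0.37, edgeR adjusted p = 0.803), Slc16a3 at -1.20 (SE 0.53), Higd1a at -1.20 (SE 0.32, edgeR adjusted p = 0.548), Egln3 at -1.15 (SE 0.53), and after Ldha by Pfkl at -0.97 (SE 0.44), Pfkp at -0.82 (SE 0.41) and Pkm at -0.74 (SE 0.21, edgeR adjusted p = 0.640). Without GFP-N 6 the edgeR adjusted p was 0.00541 for Pgk1 and 0.00580 for Ldha, in a fit that called 6 genes (0.154% of the 3898 tested), so these 2 calls turned on 1 library. Leaving out GFP-N 3, whose identifier 7082 has no GFP-P partner, together with the 3 libraries of the set under 100000 counts, an alternative added after seeing the data, gave log2 fold changes of -0.62 for Ldha, -0.70 for Pgk1, -0.34 for Higd1a and -0.29 for Bnip3. The glycolysis median of set 1, -0.47, was then -0.15, and Ero1a was at -0.43 (SE 0.47). With the identifier as a block, Ero1a in set 1 was at -0.60 (SE 0.62). The HIF median of set 1 was -0.22, and it ran from -0.38 (without GFP-P 1) to 0.019 (without GFP-N 1) with 1 library left out. Vegfa (0.79), Hif1a (0.72) and Ndrg1 (0.54) had positive log2 fold changes in set 1.

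In set 2, 2 of 30 members were lower in GFP-P at an unadjusted p below 0.05, P4ha1 and Ero1a, and 0 were higher, beside 4.53% lower and 2.34% higher among all 6952 genes tested. No member was called, where 1.28% of all genes were, 86 lower (1.24%) and 3 higher (0.0432%) in GFP-P, and DESeq2 called 2.04% of the genes and no member. Values below 0 were found in 20 of 30 members, beside 43.9% of all genes. P4ha1 had a mean of 63.2 CPM ± 16.4 (SD, n = 6) in GFP-N and 31.0 CPM ± 18.6 (SD, n = 6) in GFP-P, a log2 fold change of -1.06 (SE 0.46, edgeR adjusted p = 0.593). Ero1a had a log2 fold change of -0.96 (SE 0.47, edgeR adjusted p = 0.725) in set 2 and -1.32 (SE 0.50, edgeR adjusted p = 0.894) in set 1. Slc16a3 had -0.54 (SE 0.57) in set 2. The 5 members with the smallest unadjusted p in set 1 had log2 fold changes near 0 in set 2: 0.08 (SE 0.20) for Ldha, 0.05 (SE 0.25) for Pgk1, 0.10 (SE 0.21) for Higd1a, 0.0016 (SE 0.21) for Pkm and -0.0092 (SE 0.43) for Bnip3.

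The interaction of group and library set tests whether the difference itself changed between the sets, and no member passed it (0 of 6621 genes called by edgeR, 0.0604% by DESeq2 with no member among them). The change in log2 fold change from set 1 to set 2 was 1.01 for Ldha (SE 0.29, unadjusted p = 0.00124, edgeR adjusted p = 0.469), 1.22 for Higd1a (SE 0.37, edgeR adjusted p = 0.469) and 1.23 for Pgk1 (SE 0.40, edgeR adjusted p = 0.544). At an unadjusted p below 0.05, 6 members had a positive interaction (Ldha, Higd1a, Pgk1, Pfkl, Pkm and Aldoa) and 1, Vegfa, a negative one, beside 2.78% and 3.62% of all genes. Ero1a (0.33, SE 0.70) and Eno1 (0.03, SE 0.43) had small interaction terms with wide errors.

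**Figure D4:**
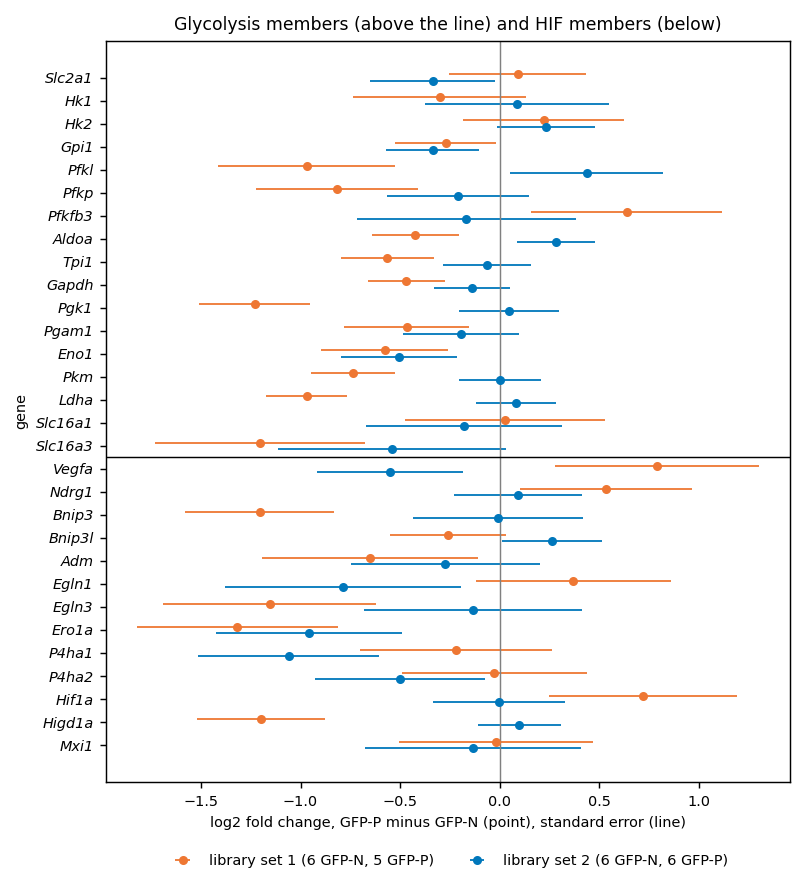
Log2 fold change, GFP-P minus GFP-N, of the 30 tested members within library set 1 (orange) and library set 2 (blue); lines are standard errors. Ldha, Pgk1, Pkm, Bnip3 and Higd1a lie well below 0 in set 1 and near 0 in set 2, whereas Ero1a, Eno1 and Slc16a3 lie below 0 in both.

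The summed level of the 18 glycolysis members showed which libraries carried this pattern. The sum was 10035, 14834 and 22826 CPM (lowest, median and highest) in GFP-N of set 1 and 7415, 10586 and 10939 CPM in GFP-P of set 1. In set 2 it was 6445, 10445 and 12805 CPM in GFP-N and 7348, 9279 and 12582 CPM in GFP-P. The 3 highest sums were those of GFP-N 3 (22826 CPM), GFP-N 2 (18590 CPM) and GFP-N 5 (17126 CPM), and GFP-N 4 had 12542 CPM. As a share of all counts the glycolysis members made up between 0.644% and 2.28% of a GFP-N library and between 0.735% and 1.26% of a GFP-P library. The HIF sum was highest in GFP-N 5 (3221 CPM) and lowest in GFP-P 4 (727 CPM).

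Other transcripts moved with these libraries. GFP-N 2, 3, 4 and 5 also held the highest sums of 14 cycling genes, 1409, 1252, 1126 and 1336 CPM, where the other 19 libraries lay at or below 808 CPM. GFP-N 2, 3, 4 and 5 were the shallowest GFP-N libraries of set 1 as well, at 25458 to 157362 counts. Their fibroblast sums (159 to 668 CPM) and macrophage sums (864 to 1375 CPM) lay below those of every GFP-N library of set 2 (1150 to 8864 and 2304 to 6336 CPM). Low stromal sums were not particular to them. GFP-N 6 of set 1 held 150 and 396 CPM, with a glycolysis sum of 10035 CPM and a cycling sum of 419 CPM. GFP-N 1 of set 1 held 2439 and 6617 CPM, with a glycolysis sum of 11995 CPM. In set 2 the GFP-N libraries held more fibroblast and macrophage transcripts than the GFP-P libraries (172 to 987 and 129 to 833 CPM), with 7 of 7 tested macrophage markers and 4 of 8 fibroblast markers past the threshold (edgeR). Epithelial markers were present in all libraries, at summed levels of 2659 to 7660 CPM in GFP-N and 2518 to 7204 CPM in GFP-P. The part of cycling, stromal content and depth in the values of the glycolysis and HIF members was not tested.

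**Figure D5:**
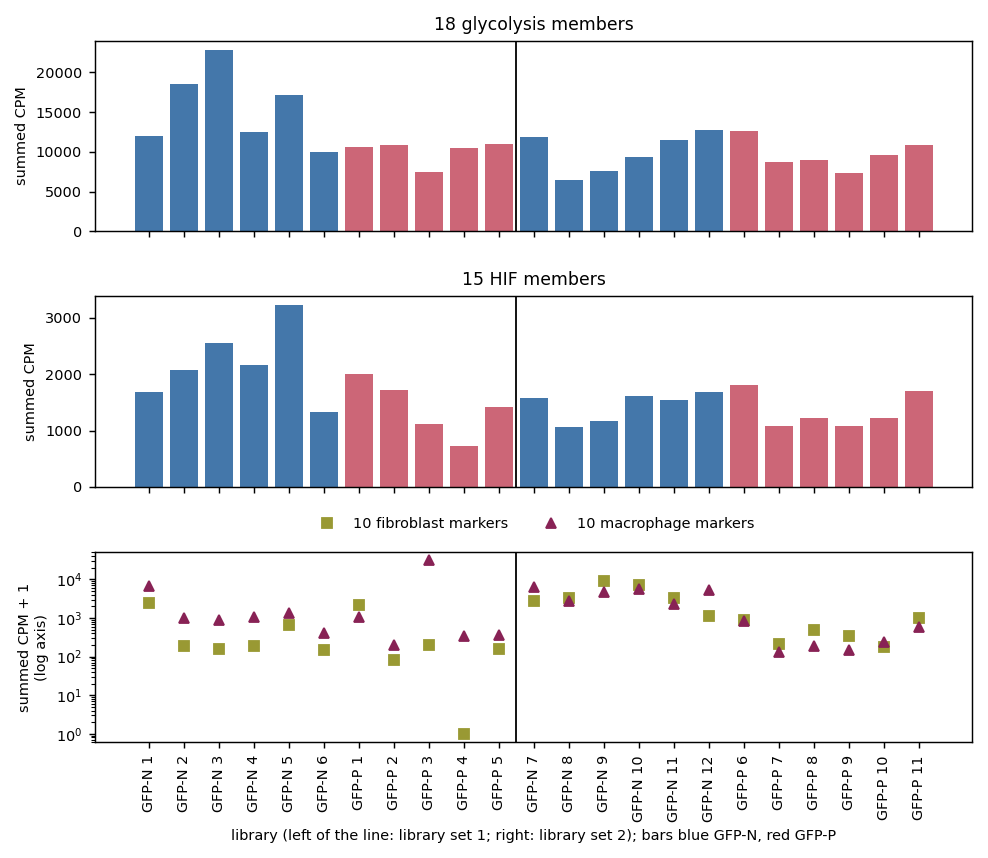
Summed CPM of the 18 glycolysis members (top) and 15 HIF members (middle) as bars, and of fibroblast and macrophage markers as points on a log axis (bottom, 1 CPM added), in each library (blue GFP-N, red GFP-P; library set 1 left of the line). GFP-N 2, 3 and 5 have the highest glycolysis sums, and the GFP-N libraries of set 2 have more stromal transcripts than the GFP-P libraries of that set.

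Within identifiers the direction was mixed. Of the 18 glycolysis members, 11 were lower in GFP-P in at least 6 of the 10 identifiers and 2 were higher in as many. Of the 15 HIF members, 9 were lower in at least 6 and 4 were higher in as many. Directions within identifiers were not counted over all genes, so these counts have no background share beside them. They rest on CPM without TMM factors. Eno1 and Pgam1 were lower in 8 of 10, and Ldha, Pgk1, Pkm, Gapdh, Tpi1 and Pfkp in 7 of 10. Identifiers 61-1 and 40-1 went the other way. In 61-1, which sets GFP-N 8 of library set 2 against the mean of GFP-P 2 of set 1 and GFP-P 7 of set 2, 14 of 18 glycolysis members were higher in GFP-P, with a median difference of 0.61 on the log2(CPM + 1) scale. In 40-1 it was 13 of 18 with a median of 0.12, while in 7421 the median was -0.51 with 13 of 18 lower. For HIF members the median difference ran from -2.86 in 8045-8050, whose GFP-P library held 37125 counts, to 0.59 in 7968, whose GFP-N library held 69580 counts.

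Neighbouring genes of these pathways outside the set were counted from fixed lists. Of 9 further glycolysis genes tested, 7 had a log2 fold change below 0 over all libraries, with a median of -0.44, and none was called. Among them Bsg, the chaperone that brings lactate transporters to the cell surface, had a log2 fold change of -0.48 (SE 0.24) over all libraries, -1.08 (SE 0.33) in set 1 and 0.12 (SE 0.26) in set 2. Of 22 further HIF response genes, 13 lay below 0, with a median of -0.08 and none called over all libraries. Loxl2, a collagen cross-linking enzyme, had a log2 fold change of -0.88 (SE 0.28), Fam162a of mitochondria -0.74 (SE 0.26) and Mif, a cytokine, -0.38 (SE 0.17). Lox, another collagen cross-linking enzyme, was tested in set 2 alone, where it was lower in GFP-P, 4.53 CPM ± 3.96 (SD, n = 6) against 61.9 CPM ± 26.4 (SD, n = 6), log2 fold change -3.73 (SE 0.63, edgeR adjusted p = 0.00107). In the same set the 8 tested fibroblast markers had a median log2 fold change of -2.93, Col1a1 one of -3.90 and Col1a2 one of -3.71, and their part in the value of Lox was not tested.

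Genes of pyruvate oxidation and the pentose phosphate pathway did not lean to 1 side: 7 of 14 tested lay below 0, with a median of -0.00082, and none was called. The members of this list with the smallest p were Dld and Pdha1, subunits of the pyruvate dehydrogenase complex. Dld had a mean of 49.3 CPM ± 26.5 (SD, n = 12) in GFP-N and 87.8 CPM ± 20.1 (SD, n = 11) in GFP-P, a log2 fold change of 0.68 (SE 0.27, edgeR adjusted p = 0.949). Pdha1 had a log2 fold change of 0.60 (SE 0.26, edgeR adjusted p = 0.985). The most expressed gene of this list, Taldo1 of the pentose phosphate pathway, had a log2 fold change of -0.09 (SE 0.20).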

How the data were processed

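RNA was measured by bulk sequencing of poly(A)-selected, directional libraries, per the labels' protocols. The authors deposited 1 table of expected counts (estimated counts per gene, whole numbers as deposited), made with Salmon 1.3.0 on mm10 per the submitters' processing notes; its transcript annotation is not given in the sources used here. This program divides reads between near-identical genes, so counts of genes with copies are estimates.

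The labelled GFP status set the groups, and library sets and identifiers from the library names. Genes were tested with edgeR 4.0.16, run in R 4.3.3 (filterByExpr by group, TMM scaling, robust quasi-likelihood fit, Benjamini-Hochberg adjustment over all tested genes, threshold 0.05), over all 23 libraries, within each library set, and for the interaction of both. The fits were tested on simulated data first. CPM are counts scaled to a common library total, without TMM factors. Alternatives were DESeq2 1.42.0, RLE scaling, no filter, blocks by identifier or by title number, library set as covariate, and leaving out libraries or identifiers; limma 3.58.1 is loaded by edgeR. The names 8045, 8050 and 8045-8050 were read as 1 identifier. Exon lengths and gene spans came from GENCODE M21, and promoters from RefSeq (GRCm38.p6).

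The members and gene lists were chosen with earlier results of these data known, so no list was tested as a set. All members were named. From each other list the rule names up to 4 genes past the threshold in any fit, up to 3 with the smallest unadjusted p below 0.05 over all libraries, and the most expressed gene. The lists were further glycolysis, further HIF response, pyruvate and pentose phosphate, cycling, and markers of epithelial cells, fibroblasts, macrophages, endothelial cells, neutrophils, T cells and erythrocytes.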

Additional observations from a re-analysis of the deposited data

Results flagged for a closer look

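A gap test (Dixon's) was run on 12 measures within each group of each library set, in groups of 5 or 6 libraries. It flags about 1 in 20 by chance where tests are separate, but these measures share libraries and genes. Of the 48 tests, 7 were flagged because 1 library stood far from the others. All 7 were in library set 1. Pgk1 was at 526 CPM in GFP-P 3, the next lowest GFP-P library being at 889 CPM, and the summed glycolysis members in the same library were at 7415 CPM, the next at 10505 CPM. GFP-P 3 also held 31106 summed CPM of macrophage markers, where the next GFP-P library of the set held 1070 CPM. Higd1a was at 162 CPM in GFP-P 4, a library of 37125 counts, and at 335 CPM in the next lowest library. GFP-N 1 had the highest sums of fibroblast markers (2439 CPM, the next 668) and of macrophage markers (6617 CPM, the next 1375) among GFP-N libraries of the set. GFP-P 1, of the same identifier 3034 as GFP-N 1, had the highest fibroblast sum among GFP-P libraries (2130 CPM, the next 198).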

How the results depend on the processing

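Of 1261 values of members over all libraries under alternatives, 1220 kept their direction and their side of the threshold, 41 changed sign, none passed it, and the smallest adjusted p was 0.107. Outside the fits that leave out a library or identifier, the sign changed for Aldoa with no filter (0.027) and with the identifier as a block (0.044), Bnip3l with DESeq2 (-0.013) and RLE scaling (-0.073), Hk1 with the replicate block (0.056), Mxi1 with no filter (0.00771), with the identifier as a block (0.0102) and with the replicate block (0.00165), and Slc16a1 with no filter (0.016). With 1 library left out, log2 fold changes ran from -0.14 to 0.027 for Aldoa, -0.062 to 0.09 for Bnip3l, -0.50 to 0.26 for Egln1, -0.19 to 0.043 for Mxi1, -0.28 to 0.16 for Slc16a1 and -0.066 to 0.37 for Vegfa. With 1 identifier left out they ran from -0.17 to 0.027 for Aldoa, -0.10 to 0.18 for Bnip3l, -0.55 to 0.35 for Egln1, -0.30 to 0.056 for Mxi1, -0.31 to 0.21 for Slc16a1 and -0.0034 to 0.35 for Vegfa. The count of genes called over all libraries (1) was 24 with DESeq2, 2 with the identifier block, 0 with the replicate block (which leaves out GFP-N 12), 16 without GFP-P 3, from 0 to 16 with 1 library left out and from 0 to 27 with 1 identifier left out. In set 1 (0 called) it was 6 with DESeq2, 18 with the replicate block, 1 without GFP-P 3 (chosen after seeing the data), and from 0 to 6 with 1 library left out. In set 2 (89 called) it was 142 with DESeq2, 375 with no filter and 140 with the identifier block. The interaction had 4 with DESeq2. Members called lower in set 1 were 2, Pgk1 and Ldha, with the replicate block (adjusted p = 0.00322 and 0.00654, edgeR; 0.462% of genes called), which leaves out GFP-N 6 since its number has no GFP-P library in the set, and from 0 to 2 with 1 library left out. The title numbers share only a number: 2 of 11 join libraries of 1 identifier, correlations of deviations within a number ran from -0.17 to 0.43, and those within identifiers from -0.23 to 0.43. The block by identifier changed no call of a member. The glycolysis median of set 2 (-0.14) was 0.03 with no filter and 0.01 without libraries under 100000 counts, and the HIF median of set 2 (-0.13) was 0.01 with no filter and ran from -0.30 to 0.05 with 1 library left out. The cause was not tested. Depth limits the low members most, since 4 libraries held fewer than 100000 counts.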

Other observations

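Genes of dividing cells lay lower in GFP-P over all libraries in 8 of 9 tested, with a median log2 fold change of -0.76, and none was called by edgeR. Tpx2, which builds the mitotic spindle, had a mean of 51.0 CPM ± 41.2 (SD, n = 12) in GFP-N and 17.4 CPM ± 9.14 (SD, n = 11) in GFP-P, log2 fold change -1.21 (SE 0.39, edgeR adjusted p = 0.730). Cdk1, the mitotic kinase, had a log2 fold change of -0.91 (SE 0.32) over all libraries, -1.54 (SE 0.48) in library set 1 and -0.26 (SE 0.39) in set 2. Birc5 had a log2 fold change of -0.85 (SE 0.33), and Top2a, the most expressed of the list, of -0.27 (SE 0.23). Epithelial genes lay higher in GFP-P in 7 of 9 tested, with a median of 0.24 and none called. Cldn4, a tight junction protein, had a log2 fold change of 0.71 (SE 0.30), Epcam, an adhesion molecule, of 0.55 (SE 0.24), and Krt19, the most expressed, of -0.07 (SE 0.17).

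Macrophage genes had a median log2 fold change of 0.15 over all libraries, none called. GFP-P 3 held 31106 summed CPM of these genes, whereas the median of the libraries was 350 CPM in GFP-P and 2561 CPM in GFP-N. In set 2, 7 of 7 were called lower in GFP-P, with a median of -3.66. There the lipid carrier Apoe had a mean of 781 CPM ± 382 (SD, n = 6) in GFP-N and 44.4 CPM ± 24.2 (SD, n = 6) in GFP-P, log2 fold change -4.12 (SE 0.34, edgeR adjusted p = 7.58e-08), and the complement genes C1qa and C1qb had -4.57 and -3.85. Cd68 had -3.27 and Lyz2 -3.66 in set 2. Fibroblast genes in set 2 were called for 4 of 8: Fbln1 (-3.73), Col1a2 (-3.71), Col1a1 (-3.90) and Lum, which had 169 CPM ± 136 (SD, n = 6) in GFP-N and 22.6 CPM ± 10.9 (SD, n = 6) in GFP-P, and the most expressed of them, Col3a1, had -2.86 (SE 0.79, edgeR adjusted p = 0.208). Of the other lists none was called: over all libraries Flt1 of the endothelial list had a log2 fold change of -0.28 (SE 0.47), S100a8 of neutrophils -0.40 (SE 0.92) and the haemoglobin gene Hba-a2 0.11 (SE 0.62). The T cell genes Cd3e, Cd3d, Cd3g and Cd8a had 0 counts in all 23 libraries, and 0 of the 5 genes of that list passed the filter.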
